A study of Mus musculus with 16 samples.

Results

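The comparison was between 2 libraries of B cells and 2 libraries of mature myeloid cells (labelled "Myloid"), chosen by their labelled cell type from 16 small RNA libraries of 8 populations. Every library was made from flow-sorted marrow cells of wild-type animals, and no group carried an allele, treatment or time point; strain, age and the number of mice behind a library are not given in the sources used here. The labels list the antibodies used for sorting, including B220 and IgM for B cells and CD11b and Gr1 for myeloid cells, but not the gate of each population. The other populations were T and Erythroid cells and the progenitors CLP (common lymphoid), CMP (common myeloid), GMP (granulocyte-monocyte) and MEP (megakaryocyte-erythroid), with 2 libraries each. Since nothing says that the 2 libraries of a population came from separate mice, each p-value is set against a library-to-library spread that could be technical only. The series title names snoRNAs of the Dlk1-Gtl2 imprinted locus in stem cells, and the B and Myeloid libraries give the mature lymphoid and myeloid ends of the same measurement.

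Small nucleolar RNAs (snoRNAs) are mostly cut from the introns of host genes and guide chemical modification of ribosomal RNA. C/D snoRNAs carry the short C and D boxes and guide 2′-O-methylation, while H/ACA snoRNAs end in an ACA box and guide pseudouridylation; a few of both kinds guide cleavage of the ribosomal RNA precursor instead. MicroRNAs (miRNAs) pair with messenger RNAs through a seed near their 5′ end, and several are known as markers of blood lineages, among them miR-223 in granulocytes and monocytes and miR-150 and miR-181 in lymphocytes. B cells and myeloid cells thus differ in known miRNAs, and the snoRNA side of the comparison rests on the data below.

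The sequences below are those on which the snoRNA differences turn. They come from the GENCODE M21 transcripts on GRCm38 and are written 5′ to 3′. Capitals mark the C box (or the part of it inside the annotated interval) and the last CTGA, the D box. For Snord57 they mark the closest match to the C box, which has 1 mismatch. Gm26224 (chr1:161035394-161035473, plus strand) lies in the noncoding host gene Gas5, and Snord49a (chr11:62603450-62603521, plus strand) lies in the host 2410006H16Rik. Snord68 (chr8:123103038-123103123, plus strand) lies in the ribosomal protein gene Rpl13. Snord57 (chr2:130278016-130278087, plus strand) and Snord110 (chr2:130275506-130275573, plus strand) both lie in Nop56, which encodes a core protein of C/D particles. Snord90 (chr2:37400047-37400157, minus strand) lies in Rc3h2, and Snord123 (chr15:32241853-32241923, minus strand) lies in Snhg18. These 7 were higher in B. Gm24452 (chr19:8724531-8724602, plus strand) lies in the noncoding host Snhg1 and was higher in Myeloid.
Gm26224: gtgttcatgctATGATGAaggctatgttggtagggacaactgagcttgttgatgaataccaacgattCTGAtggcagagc
Snord49a: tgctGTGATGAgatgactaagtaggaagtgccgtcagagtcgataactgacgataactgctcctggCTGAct
Snord68: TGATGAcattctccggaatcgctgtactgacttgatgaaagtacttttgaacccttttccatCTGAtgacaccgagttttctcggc
Snord57: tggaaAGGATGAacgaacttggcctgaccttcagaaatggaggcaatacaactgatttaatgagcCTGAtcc
Snord110: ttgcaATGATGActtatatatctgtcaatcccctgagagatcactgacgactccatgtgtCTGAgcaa
Snord90: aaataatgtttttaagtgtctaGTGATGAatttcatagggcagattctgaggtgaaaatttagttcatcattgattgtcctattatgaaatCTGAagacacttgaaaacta
Snord123: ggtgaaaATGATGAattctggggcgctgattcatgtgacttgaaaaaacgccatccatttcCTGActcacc
Gm24452: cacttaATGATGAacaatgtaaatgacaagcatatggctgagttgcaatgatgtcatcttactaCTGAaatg

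Mature miRNA sequences from RefSeq (GRCm38.p6) are shown with the seed, bases 2 to 8, in capitals. The first group is from miRNAs higher in Myeloid or sharing a seed with one, and the last group is from the B lymphoid marker list. Mir103-1 and Mir103-2 have the same mature sequence, which also shares its seed with miR-107, and miR-146a and miR-146b share theirs. The counts are per hairpin interval and do not separate the arms of a hairpin.
miR-223-3p: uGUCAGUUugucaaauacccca
miR-340-5p: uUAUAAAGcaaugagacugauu
miR-542-3p: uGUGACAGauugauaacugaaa
miR-103-3p: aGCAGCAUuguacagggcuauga
miR-107-3p: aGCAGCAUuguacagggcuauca
miR-146a-5p: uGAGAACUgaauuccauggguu
miR-146b-5p: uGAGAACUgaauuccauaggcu
miR-181a-5p: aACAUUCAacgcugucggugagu
miR-181b-5p: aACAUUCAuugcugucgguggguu
miR-155-5p: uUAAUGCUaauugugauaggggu
miR-342-3p: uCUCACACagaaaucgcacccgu

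Total counts were 19974768 and 15877524 in the B libraries and 15590104 and 35775890 in the Myeloid libraries, and between 864 and 1274 of 1885 intervals had a read. Among the 157 features of at least 100 CPM, the log2 ratio between the 2 libraries had an SD of 0.0955 in B and 0.0657 in Myeloid, and each of these libraries was nearest to its own replicate. In GMP, MEP and Erythroid it was 0.444, 0.522 and 0.502, and the median miRNA differed between the 2 libraries of those pairs by 1.11 to 1.29 on the log2 scale, against 0.114 in B and 0.100 in Myeloid. The test shared its estimate of spread over all 16 libraries, so those pairs enter the standard errors (SE) given for miRNAs. Levels are counts per library size (CPM) after TMM scaling (edgeR's trimmed mean of M values), called scaled CPM below. Libraries were cut from a gel at 170 to 370 bp with adaptors, a window set for snoRNAs, and counts in miRNA intervals do not tell mature miRNAs from longer precursors.

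C/D snoRNAs made up most of each library, and miRNAs held a larger share in Myeloid than in B. miRNA intervals held 0.693% and 0.709% of the counts in the B libraries and 3.09% and 3.21% in the Myeloid libraries (means 0.701% ± 0.0116 and 3.15% ± 0.0850, SD, n = 2 each). The T libraries lay between them at 1.61% and 1.75%. Within a population the miRNA share differed widely in GMP (0.699% and 1.62%) and Erythroid (0.758% and 1.96%), and GMP library 1 was at the level of B. How far such library variation enters the difference between B and Myeloid was not tested. Small nuclear RNA (snRNA) intervals held 0.278% and 0.263% in B and 0.491% and 0.489% in Myeloid. C/D snoRNAs held 91.6% and 90.8% in B and 88.2% and 87.9% in Myeloid. H/ACA snoRNAs held 1.17% and 1.09% in B and 1.09% and 1.03% in Myeloid, and the 45S pre-rRNA held 6.02% and 6.95% in B and 6.86% and 7.14% in Myeloid. The groups did not overlap for miRNAs, snRNAs and C/D snoRNAs. Nor did they for mitochondrial rRNAs and tRNAs, scaRNAs, other snoRNAs, other small RNAs and unnamed intervals annotated as miRNAs. They overlapped for the 45S pre-rRNA and met at 1.09% for H/ACA snoRNAs, so a lack of overlap was common among classes. With 2 libraries a side an exact permutation test cannot give a p below 0.33. The shares add to a whole, so a larger share of one class lowers the others, and fewer cells of a type and less RNA per cell cannot be told apart in bulk libraries.

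Of 749 features tested, 219 (29.2%) had an adjusted p under 0.05 (edgeR quasi-likelihood F test, p-values adjusted by Benjamini and Hochberg's method over all features). Of these, 89 (11.9%) were higher in B and 130 (17.4%) were higher in Myeloid, and the median log2 fold change of all features, B over Myeloid, was −0.245. Without B library 1, B library 2, Myeloid library 1 or Myeloid library 2 the count higher in Myeloid was 45, 42, 54 or 63, and the count higher in B was 84, 67, 60 or 69. The split followed RNA class. Of 164 C/D snoRNAs, 69 were higher in B and 11 in Myeloid, with a median of 0.24. H/ACA snoRNAs were split 6 to 8 of 106 with a median of −0.03. Of 118 snRNA intervals, 2 were higher in B and 35 in Myeloid (median −0.80), and of 202 miRNAs 1 was higher in B and 67 in Myeloid (median −1.33). The 21 mitochondrial tRNAs had 2 higher in B and none in Myeloid, and other small RNAs were split 1 to 7 of 35.

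**Figure D1:**
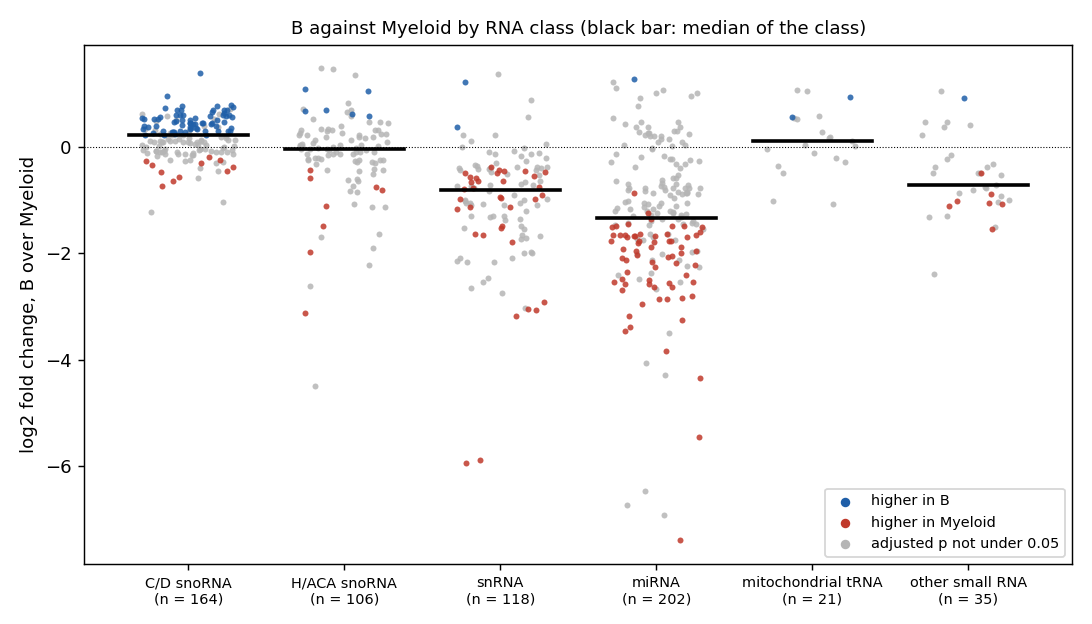
Log2 fold change of B over Myeloid (y axis) for each tested feature in 6 RNA classes (x axis, with the number tested), with 1 point per feature coloured by call and a black bar at the class median. C/D snoRNAs centre at 0.24 and miRNAs at −1.33.

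The counts of calls depend on the scaling. With relative log expression (RLE) size factors, 117 features were higher in B and 87 in Myeloid, and the median of all features moved by 0.211 to −0.0338. With library totals alone, 17 were higher in B and 318 in Myeloid, and the median moved by −0.458 to −0.703. The share of called features that were higher in B was 40.6% with TMM, 57.4% with RLE and 5.07% with library totals. The 69 to 11 split of C/D snoRNAs became 88 to 1 with RLE and 11 to 84 with library totals, so the direction of the class as a whole is relative to the scaling. A set of 17 features higher in B and 87 higher in Myeloid passed in the same direction under all 3 scalings. Those 87 held 62 miRNAs, 17 snRNA intervals, 4 H/ACA snoRNAs, 1 C/D snoRNA and 3 other small RNAs, and the 17 held 11 C/D snoRNAs. A fit on the 304 snoRNAs and scaRNAs alone, which compares them with each other, called 115 (37.8%), with 67 (22.0%) higher in B and 48 (15.8%) higher in Myeloid.

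Snord49a, a guide for methylation of 28S ribosomal RNA whose sequence is given above, had the largest called difference among snoRNAs averaging at least 100 scaled CPM and higher in B. Its scaled CPM was 158300 and 171700 in B and 84200 and 85770 in Myeloid. It was 1.94-fold higher in B (log2 0.96 ± 0.06 SE, adjusted p = 1.49e-06 in edgeR). The T libraries, at 162300 and 169400, were at the level of B, and the Erythroid libraries, at 91180 and 85590, were near that of Myeloid.

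Snord68 had scaled CPM of 79600 and 83120 in B and 49110 and 50330 in Myeloid (log2 0.71 ± 0.04, adjusted p = 1.49e-06). Gm26224, the most abundant of the members of Gas5, had 216500 and 233800 in B and 138800 and 139100 in Myeloid (log2 0.70 ± 0.05, adjusted p = 1.07e-05). Snord2, in the translation initiation factor gene Eif4a2, had 118600 and 128000 in B and 80890 and 84900 in Myeloid (log2 0.57, adjusted p = 0.000156). In all 3 the lower B library was above the higher Myeloid library. All 3 passed in the same direction under each scaling, and Snord49a, Snord68 and Gm26224 passed without any 1 of the 4 libraries.

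Most Nop56 snoRNAs were higher in B with TMM scaling. Snord57 had 8911 and 8919 scaled CPM in B and 5206 and 5357 in Myeloid (log2 0.76 ± 0.04, adjusted p = 1.49e-06). Snord110 had 2693 and 2787 in B and 1651 and 1726 in Myeloid (log2 0.70 ± 0.06, adjusted p = 1.55e-05). Of the 5 tested snoRNAs of this host, 3 were higher in B and none in Myeloid. The others, Gm23187 and Gm24451, had log2 values of 0.27 and −0.12. For comparison, 11.9% of all features and 69 of 164 C/D snoRNAs were higher in B. With RLE the Nop56 split was 4 to 0, and with library totals it was 2 to 1. T libraries had more Snord57 than either, at 12760 and 13730.

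Snord90 had 1668 and 1541 scaled CPM in B and 958.0 and 915.1 in Myeloid (log2 0.78 ± 0.06, adjusted p = 1.51e-05). Snord123, a scarce C/D snoRNA, had 25.1 and 25.3 in B and 10.72 and 8.404 in Myeloid, a 2.65-fold difference (log2 1.40 ± 0.17, adjusted p = 0.000173). Its T and Erythroid libraries lay between 5.21 and 5.91, below both. Snord123 was the C/D snoRNA furthest toward B.

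Among H/ACA snoRNAs higher in B, Gm25117 in Nap1l1 was the most abundant, with 12400 and 12030 scaled CPM in B and 8031 and 7728 in Myeloid (log2 0.63 ± 0.10, adjusted p = 0.0012). Gm25291 in Sec24a had 163.6 and 166.4 in B and 101.5 and 101.3 in Myeloid (log2 0.70, adjusted p = 0.00836), and 0.0531 without Myeloid library 2. Both kept a positive direction but did not pass with library totals.

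Fewer snoRNAs were clearly higher in Myeloid. Gm24452 in Snhg1 had 11690 and 11170 scaled CPM in B and 16710 and 17060 in Myeloid (log2 −0.56 ± 0.05, adjusted p = 1.55e-05), and it was the 1 C/D snoRNA higher in Myeloid under all 3 scalings. The H/ACA snoRNA Snora43 had 39.4 and 45.8 in B and 91.6 and 91.2 in Myeloid (log2 −1.10 ± 0.14, adjusted p = 0.000247), a 2.15-fold difference; it overlaps another annotated interval and has 1 similar copy, so its reads may be split. Snora26 in Dancr had 9.37 and 8.60 in B and 15.6 and 15.8 in Myeloid (log2 −0.80, adjusted p = 0.00218), and 0.0648 without B library 2. Gm24452 and Snora43 passed without any 1 of the 4 libraries. The others named for their size, Snora9, Gm26287, Gm23734, Gm22786 and Gm24916, had log2 values from −0.47 to −0.75, and each lost its call without at least 3 of the 4 libraries in turn (adjusted p up to 0.644).

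**Figure D2:**
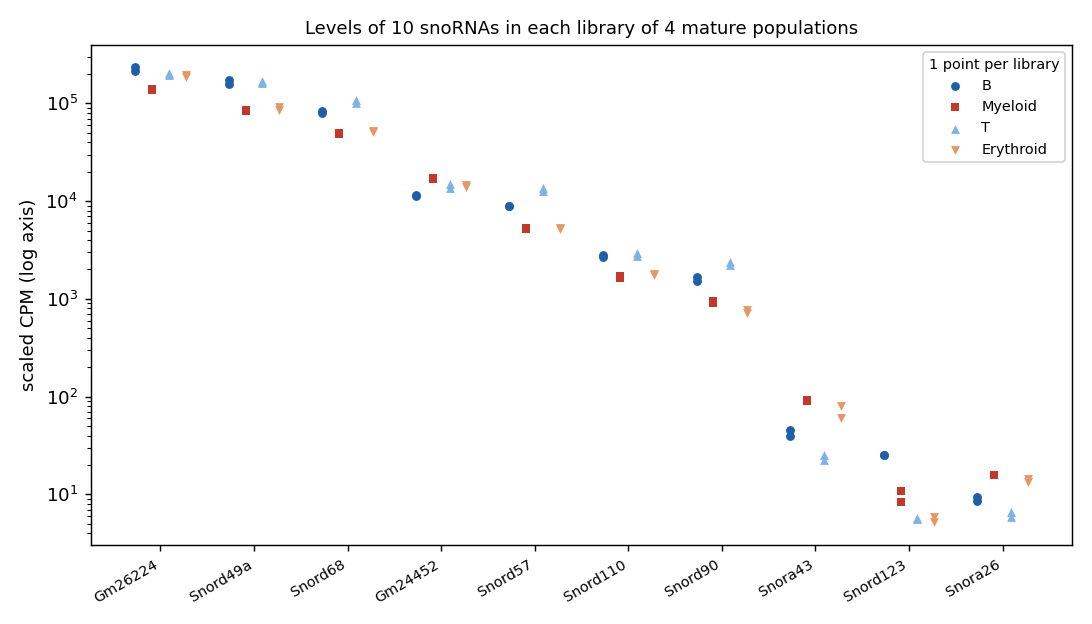
Scaled CPM on a log axis (y axis) of 10 snoRNAs (x axis) in the libraries of B, Myeloid, T and Erythroid, with 1 point per library. B and Myeloid points do not overlap for any of the 10: Gm24452, Snora43 and Snora26 lie higher in Myeloid and the other 7 higher in B.

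Some host genes had snoRNAs called in different directions. Of 53 host genes with at least 2 tested snoRNAs, 5 had members called in both directions: Gas5, Snhg1, Zfas1, Rpl4 and Gnl3. In a fit on snoRNAs alone 11 hosts did, and under all 3 scalings none did. The Gas5 intron snoRNAs numbered 10, with 6 higher in B and 1 in Myeloid and a median of 0.36. Over all features the shares were 11.9% and 17.4%, and among C/D snoRNAs 69 and 11 of 164. The Gas5 split was 7 to 0 with RLE and 1 to 5 with library totals. At the extremes were Gm26224 at 0.70 and Snord78, with 204.3 and 199.4 scaled CPM in B and 238.1 and 253.0 in Myeloid (−0.28, adjusted p = 0.0656). Gm22357, with 1167 and 1099 in B and 1284 and 1295 in Myeloid (−0.19, adjusted p = 0.0177), was the Gas5 member called toward Myeloid.

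Snhg1 had 3 members higher in B and 2 higher in Myeloid of 8. Over all features the shares were 11.9% and 17.4%, and among C/D snoRNAs 69 and 11 of 164. Snhg1 had 3 and 1 with RLE, 0 and 8 with library totals, and 1 and 4 among snoRNAs alone. Its extremes were Gm24452, described above, and Gm23246, with 12160 and 12170 scaled CPM in B and 10080 and 9974 in Myeloid (0.28, adjusted p = 0.0179). For each of these the 2 libraries of a population lay close together and apart from the other population. Gm23246 kept its call in 1 of 4 fits that left out a library (adjusted p 0.0283 to 0.0786) and turned to −0.18 with library totals.

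Rpl4, a ribosomal protein gene, had Snord16a higher in B (837.0 and 802.9 against 543.4 and 547.8, 0.59 ± 0.07, adjusted p = 0.000141) and Gm22455 higher in Myeloid (1201 and 1171 against 1472 and 1454, −0.30, adjusted p = 0.00301). In the noncoding host Zfas1, Snord12 was higher in B (15230 and 15240 against 11760 and 12120, 0.35, adjusted p = 0.000393), and Gm25878 was higher in Myeloid (9253 and 9105 against 10790 and 11080, −0.25, adjusted p = 0.00221). In Gnl3, which encodes nucleostemin, Snord69 was higher in B (836.3 and 829.2 against 644.1 and 695.0, 0.31) and Gm24916 was higher in Myeloid (926.2 and 951.5 against 1275 and 1319, −0.47). Within each pair the 2 libraries of a population lay on the same side. The 3 members toward Myeloid each kept the call in 1 of the 4 fits without a library, with adjusted p up to 0.452, 0.499 and 0.145, and Snord69 lost its call without Myeloid library 1 (0.0794).

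**Figure D3:**
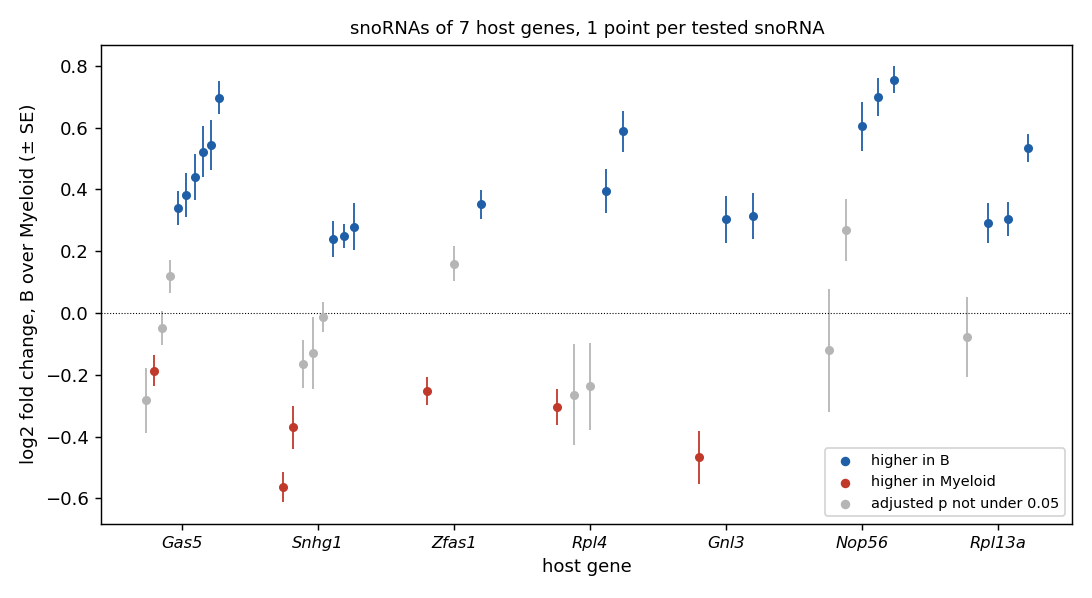
Log2 fold change of B over Myeloid with its SE (y axis) for the tested snoRNAs of 7 host genes (x axis), 1 point each, coloured by call. Gas5, Snhg1, Zfas1, Rpl4 and Gnl3 have points of both colours, while Nop56 and Rpl13a have called members only toward B on this scaling.

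Ribosomal protein genes are frequent snoRNA hosts. Of 52 snoRNAs in ribosomal protein genes other than Rpl13a, 17 were higher in B and 1 in Myeloid (median 0.18). Of 4 in Rpl13a, 3 were higher in B (median 0.30). Over all features 11.9% were higher in B, as were 69 of 164 C/D snoRNAs (median 0.24) and 6 of 106 H/ACA snoRNAs. The share of the 52 was thus not above that of C/D snoRNAs. Fitted among snoRNAs alone the 52 were split 15 to 6, and with library totals 3 to 23; the Rpl13a split turned to 0 to 3 with library totals. Across the 164 C/D snoRNAs the log2 fold change had a Spearman correlation of 0.366 with GC content, 0.169 with mean level and 0.006 with length. These describe features that share the same 4 libraries, and neither base composition nor level was tested as a source of the differences.

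The list of snoRNAs that process the ribosomal RNA precursor had 18 tested intervals, of which 6 were higher in B and none in Myeloid (median 0.45 against −0.245, and 11.9% higher in B, for all features). Among all C/D snoRNAs 69 of 164 were higher in B, with a median of 0.24. With RLE 12 of the 18 were higher in B, and with library totals none were and 4 were lower. Snord118 (U8), needed for 5.8S and 28S maturation, had 162.2 and 167.3 scaled CPM in B and 130.6 and 136.1 in Myeloid (0.31 ± 0.08, adjusted p = 0.0202). Snord13, which guides acetylation of 18S ribosomal RNA, had 121.7 and 126.1 in B and 91.8 and 95.4 in Myeloid (0.40, adjusted p = 0.0303). Snora73b (U17) had 26.4 and 34.6 in B and 22.9 and 17.8 in Myeloid (0.585, adjusted p = 0.0408), and its partner Snora73a had a log2 value of 0.33 and an adjusted p of 0.147. Each of these 3 calls was lost without at least 1 library, with adjusted p up to 0.077, 0.094 and 0.228.

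U3 guides the first cleavages of the precursor and was present as 10 intervals with overlapping or near-identical copies, which share reads. Their log2 values ran from 0.04 to 0.67 and 3 passed: Rnu3b4 (0.67, adjusted p = 0.0187), Rnu3b1 (0.61, adjusted p = 0.0452) and Rnu3b2 (0.55, adjusted p = 0.0397), 1 annotated copy each. The called Rnu3b4 copy had 75.3 and 78.0 scaled CPM in B and 49.5 and 47.0 in Myeloid. Without Myeloid library 2 its adjusted p was 0.0954, and the called copies of Rnu3b1 and Rnu3b2 passed in none of the 4 fits that left out a library. The U14 members Snord14a, Snord14c, Snord14d and Snord14e lay between −0.15 and 0.15 with adjusted p from 0.319 to 0.527. The 45S pre-rRNA itself had 71330 and 86240 in B and 59710 and 63490 in Myeloid (0.355 ± 0.10, adjusted p = 0.0251) and was −0.11 with library totals.

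Small nuclear RNAs (snRNAs) were called mostly toward Myeloid. Of 10 named snRNAs, Rnu1b2, Rnu2-10, Rnu6 and Rnu7 were higher in Myeloid (17.4% over all features) and Rnu5g, a U5 RNA, was higher in B. With RLE the split was 1 to 1, and the call left toward Myeloid was the scarce Rnu6 (adjusted p = 0.0447 in edgeR). Rnu7, Rnu2-10 and Rnu1b2 then had adjusted p of 0.179, 0.151 and 0.104. Rnu7, which processes histone messenger RNAs, had 281.3 and 279.2 scaled CPM in B and 374.0 and 394.6 in Myeloid (−0.46 ± 0.08, adjusted p = 0.00218). Rnu2-10 had 224.0 and 202.8 in B and 302.9 and 293.5 in Myeloid (−0.48, adjusted p = 0.00176). Rnu5g had 246.5 and 222.7 in B and 185.2 and 174.5 in Myeloid (0.38, adjusted p = 0.00706), and its sign turned to −0.08 with library totals.

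Rnu6, with scaled CPM under 1 in each of the 4 libraries and 203 similar copies, passed at an adjusted p of 0.0328 but rests on very few reads. The minor spliceosome RNAs Rnu11 and Rnu12 had log2 values of −0.37 and −0.10 (adjusted p = 0.292 and 0.413). Rnu1b2 and Rnu2-10 have 20 and 12 similar copies, so the counts of single copies are uncertain. All 5 calls were lost without at least 1 library: Rnu7 and Rnu2-10 without B library 2 or Myeloid library 1 (adjusted p up to 0.192 and 0.252), Rnu5g without Myeloid library 2 (0.0531), and Rnu1b2 and Rnu6 in 3 of the 4 fits (up to 0.138 and 0.219).

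Of 8 housekeeping small RNAs, 4 were higher in Myeloid (17.4% over all features) and none in B. With RLE 2 were, and Rny3 and Rn7s2 had adjusted p of 0.054 and 0.251. Rny1, a Y RNA bound by the Ro protein, had 30.8 and 35.3 scaled CPM in B and 55.6 and 66.5 in Myeloid (−0.88 ± 0.17, adjusted p = 0.00292). Rny3 (−1.02), the vault RNA Vaultrc5 (−1.06) and the signal recognition particle RNA Rn7s2 (−0.49) also passed, at adjusted p = 0.0159, 0.0101 and 0.0206. Rny1 passed without any 1 of the 4 libraries, Rny3 and Vaultrc5 passed in 1 of the 4 fits and Rn7s2 in none (adjusted p up to 0.197, 0.144 and 0.254). Rn7sk, which holds the elongation factor P-TEFb inactive, was at −0.15 with an adjusted p of 0.287, and Terc, the telomerase RNA, had under 1 scaled CPM in each library. The scaRNAs Scarna10 and Scarna9, which guide modification of snRNAs, had log2 values of 0.23 and 0.28 (adjusted p = 0.526 and 0.389).

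miRNAs carried the largest differences. Among called features averaging 10 or more scaled CPM in the 4 libraries, the 12 furthest toward Myeloid were miRNAs. Mir223, the granulocyte and monocyte miRNA, had 138.0 and 147.5 scaled CPM in B and 895.1 and 946.5 in Myeloid, a 6.45-fold difference (log2 −2.69 ± 0.36, adjusted p = 0.000356). Its T libraries were at 293.1 and 334.8. Mir542, in an X-linked cluster, had 1.78 and 1.25 in B and 19.9 and 24.2 in Myeloid (14.4-fold, −3.85 ± 0.54, adjusted p = 0.000494).

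Mir340 had 73.8 and 79.6 scaled CPM in B and 547.9 and 566.5 in Myeloid (−2.86 ± 0.56, adjusted p = 0.00321). Mir103-2 had 21.2 and 20.4 in B and 150.1 and 151.0 in Myeloid (−2.85, adjusted p = 0.00215), and Mir103-1, with the same mature sequence from another chromosome, had 27.8 and 31.8 in B and 181.1 and 187.5 in Myeloid (−2.63, adjusted p = 0.00458). Mir10a, encoded in the Hoxb cluster, had 141.7 and 167.0 in B and 884.1 and 923.5 in Myeloid (−2.55, adjusted p = 0.00319). In each of these the Myeloid libraries agreed within a few percent and lay far above both B libraries. Of the 38 called miRNAs that the naming rule chose, not all of which are described, 11 passed without any 1 of the 4 libraries, among them Mir223, Mir542, Mir340, Mir103-2, Mir10a, Mir146b and Mir23a. Mir103-1 and Mir26b reached 0.0506 without B library 1.

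Because 67 of 202 miRNAs were called toward Myeloid and 1 toward B on the scale of all features, miRNAs were also fitted among themselves. That fit applied its own low-count filter and also kept 202 miRNAs, of which 192 were among the 202 tested over all features. Of the 202 in that fit, 85 (42.1%) passed, with 32 (15.8%) higher in B and 53 (26.2%) higher in Myeloid. This scale compares each miRNA with the other miRNAs of its library and is about 1 log2 unit above the first for a given miRNA: Mir223 moved from −2.69 to −1.69 (adjusted p = 9.41e-10) and Mir340 from −2.86 to −1.86 (adjusted p = 3.88e-10).

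The myeloid marker list had 10 tested miRNAs, of which 8 were higher in Myeloid on both scales, against 67 and 53 of all 202 miRNAs. The median of the list was −1.995 over all features and −0.997 among miRNAs. The 8 were Mir223, Mir139, Mir146b, Mir147, Mir21a, Mir22, Mir23a and Mir24-2. Mir21a, abundant in activated myeloid cells, had 2881 and 3104 scaled CPM in B and 11000 and 11600 in Myeloid (−1.92 over all features and −0.92 among miRNAs). On the scale of all features, Mir223, Mir146b, Mir147 and Mir23a passed without any 1 library, while Mir21a, Mir139 and Mir24-2 passed in 1 of the 4 fits and Mir22 in none (adjusted p up to 0.116, 0.111, 0.0873 and 0.193). Mir27a (−1.42, adjusted p = 0.0692) and Mir146 (−0.78, adjusted p = 0.247) did not pass on either scale.

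Mir146 and Mir146b, whose products share the seed shown above and act on inflammatory signalling, were far apart. Mir146b had 63.4 and 67.6 scaled CPM in B and 358.1 and 380.0 in Myeloid (−2.49 ± 0.47, adjusted p = 0.00284). Mir146 had 33.7 and 35.2 in B and 53.8 and 64.0 in Myeloid. Among miRNAs alone Mir146b was at −1.50 ± 0.10 and Mir146 at 0.22 ± 0.14 (adjusted p = 0.205). The difference between the 2 loci was not tested.

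Of the 9 B lymphoid marker miRNAs tested, none passed over all features with TMM scaling (median −0.01 against −1.33 for all miRNAs). Among miRNAs alone 7 were higher in B (median 0.99), against 32 of all 202 miRNAs. Mir150, which marks mature lymphocytes, had 74.5 and 89.1 scaled CPM in B and 36.5 and 40.5 in Myeloid, so both B libraries were above both Myeloid libraries. Its log2 value was 1.09 ± 0.46 with an adjusted p of 0.0979 over all features, and 2.08 ± 0.18 with an adjusted p of 9.51e-09 among miRNAs. Over all features Mir150 passed in edgeR with RLE (1.3, adjusted p = 0.0297) but not with library totals (0.62, adjusted p = 0.319). T libraries had more of it, at 259.4 and 285.1.

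Mir155, induced in activated lymphocytes, had 5.57 and 6.10 scaled CPM in B and 4.58 and 4.43 in Myeloid, which was 1.37 ± 0.28 among miRNAs (adjusted p = 0.0005). The miR-181 genes, known in lymphoid development, gave 4 calls toward B of 6 among miRNAs: Mir181b-2 (1.37), Mir181b-1 (1.21), Mir181a-1 (0.79) and Mir181a-2 (0.75). Mir181a-1 and Mir181a-2 have the same mature miR-181a-5p, and Mir181b-1 and Mir181b-2 the same miR-181b-5p, so these calls may share reads. Over all features Mir181a-1, with 53.0 and 57.2 in B and 63.2 and 64.5 in Myeloid, was at −0.21, so its direction depends on the scale. Mir342 likewise was at −0.18 over all features and 0.81 among miRNAs. Mir28a and Mir34a passed on neither scale, and Mir34a had scaled CPM of 0.356 to 1.09.

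**Figure D4:**
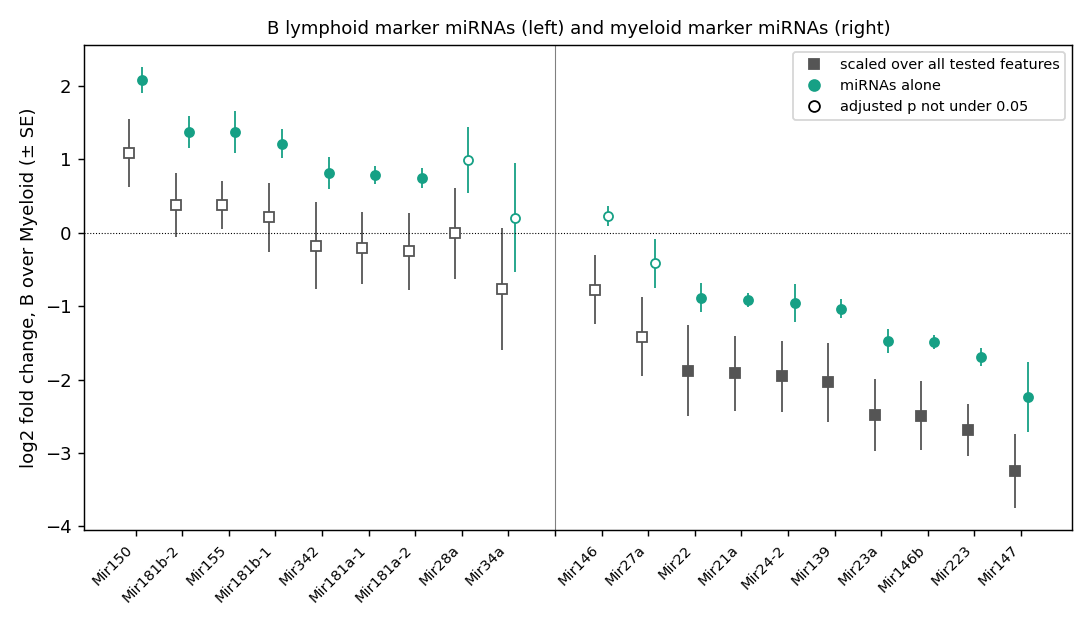
Log2 fold change of B over Myeloid with its SE (y axis) for 9 B lymphoid and 10 myeloid marker miRNAs (x axis). Squares are scaled over all tested features and circles are from miRNAs alone, with open symbols where the adjusted p was not under 0.05; Mir150 lies at 1.09 and 2.08 and Mir223 at −2.69 and −1.69.

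The X-linked Mir106a-363 cluster leaned toward B among miRNAs, where 5 of its 6 hairpins passed toward B (median 1.40), against 32 of all 202 miRNAs. Mir363 had 2.73 and 2.35 scaled CPM in B and 1.12 and 1.04 in Myeloid (2.23 ± 0.51 among miRNAs, adjusted p = 0.00117). Over all features Mir363 was at 1.23 with an adjusted p of 0.186, and Mir19b-2 of the same cluster was higher in Myeloid (−1.35, adjusted p = 0.0166), a call lost without any 1 of the 4 libraries (adjusted p up to 0.111). The related Mir17-92 cluster, known for its role in early B cell survival, had 3 of 6 members higher in Myeloid over all features (67 of all 202 miRNAs). The median of the cluster was −1.38. Among miRNAs the Mir17-92 cluster had 1 member toward B and 2 toward Myeloid, against 32 and 53 of all 202. Its members Mir17 and Mir20a were at −1.66 and −1.68 over all features, in none of the fits without a library under 0.05 (adjusted p up to 0.151 and 0.139), and at −0.66 and −0.68 among miRNAs, and Mir92-1 was at 0.31. Mir128-1, chosen after its values were seen, had 15.5 and 12.98 in B and 7.60 and 7.46 in Myeloid and was 1.93 ± 0.31 among miRNAs (adjusted p = 4.81e-05).

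Another X-linked group holds Mir322, Mir503 and Mir542. Of its 5 hairpins, 4 were higher in Myeloid over all features and 3 among miRNAs, against 67 and 53 of all 202 miRNAs. Mir450b had 0.711 and 0.938 scaled CPM in B and 9.05 and 8.95 in Myeloid (−3.45 ± 0.69, adjusted p = 0.00339), and Mir503 had 0.949 and 1.72 against 7.60 and 8.65 (−2.62, adjusted p = 0.0111). Without B library 1 the value of Mir503 had an adjusted p of 0.109. Mir351 was called over all features at −1.25 (adjusted p = 0.0411) but in none of the 4 fits without a library (adjusted p up to 0.288), and was at −0.26 among miRNAs. Mir322 was the member not called.

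In several families grouped by seed some members were called and others were not, and differences between members were not tested. RefSeq held mature sequences for 174 of the 202 tested miRNAs, and 15 seeds of 7 bases were shared by at least 3 of them. The let-7 seed GAGGUAG was on 10 tested miRNAs, of which 4 were higher in Myeloid over all features, against 67 of all 202 miRNAs. The 10 had values from −2.21 (Mir98) to −0.58 (Mirlet7d). Mir98 held its call without any 1 library, while Mirlet7b, Mirlet7c-1 and Mirlet7g passed in none of those 4 fits (adjusted p up to 0.191, 0.128 and 0.192). The miR-15/16 seed AGCAGCA was on 5, with 3 higher in Myeloid, and Mir16-2 was the lowest of these at −2.25 (adjusted p = 0.0115, up to 0.094 without 1 library) with 26.8 and 29.4 scaled CPM in B and 127.1 and 140.4 in Myeloid. All 3 miRNAs with the miR-26 seed UCAAGUA were higher in Myeloid on both scales (median −1.59 and −0.59). The miR-181 seed ACAUUCA was on 6, with none called over all features and 4 toward B among miRNAs. Within the miR-103 seed GCAGCAU, Mir103-1 and Mir103-2 were called and Mir107 was not (−0.85, adjusted p = 0.375), at 0.830 and 2.35 in B and 2.01 and 3.51 in Myeloid.

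Marker miRNAs of other cells were measured beside these results. The erythroid Mir451b/Mir451a interval, whose mature product is cut by Ago2 rather than Dicer, had 11.9 and 12.35 scaled CPM in B and 45.1 and 48.8 in Myeloid (−1.96 ± 0.29, adjusted p = 0.000704), against 113.6 and 180.0 in Erythroid. Of 3 erythroid markers it was the 1 that passed, against 67 of all 202 miRNAs toward Myeloid. Mir144 was at 0.119 to 1.39 and Mir486 at 0.356 to 1.99 in the 4 libraries. Of 4 T lymphoid markers none passed over all features with TMM scaling, and 2 passed toward B among miRNAs (32 of all 202). Mir182 and Mir183, at 1.44 to 6.20 in T, were under 1 in the 4 libraries. Of 6 stem and progenitor markers, Mir10a passed and Mir125a, Mir125b-1, Mir126a, Mir196b and Mir99a did not. Whether other cells in the sorted populations enter these levels was not tested.

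The imprinted loci named in the series title or studied beside it were nearly silent in these 4 libraries. The Dlk1-Gtl2 snoRNAs together had 10 and 2 counts in B and 6 and 14 in Myeloid, or 0.501, 0.126, 0.385 and 0.391 CPM, with exact Poisson 95% intervals on read pairs that all overlap (0.00319 to 1.17). Its miRNAs had 4 and 8 counts in B and 4 and 22 in Myeloid. The snoRNAs between Snrpn and Ube3a had 10 and 14 counts in B and 26 and 56 in Myeloid, most of them from Snord64 (8 and 6 against 20 and 44). No difference could be detected for the Dlk1-Gtl2 snoRNAs at this depth, and the intervals cover counting error only.

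Among the progenitors, CLP and GMP also give a lymphoid and a myeloid population. The difference between the contrasts was tested as (B minus Myeloid) minus (CLP minus GMP). Of 749 features, 115 (15.4%) passed, 74 (9.88%) positive and 41 (5.47%) negative. C/D snoRNAs gave 50 positive and 7 negative calls and miRNAs 1 and 19, and without 1 library in turn the counts over all features ranged from 24 to 82 positive and from 5 to 43 negative. The median of CLP over GMP was −0.01 for C/D snoRNAs and −0.19 for miRNAs, against 0.24 and −1.33 for B over Myeloid. The 2 GMP libraries differed from each other more than those of CLP, B or Myeloid did (median miRNA 1.11 on the log2 scale), and its part in the miRNA results was not tested.

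U3 differed between the contrasts. In the progenitors the called Rnu3b4 copy was lower in CLP, at 50.8 and 48.7 scaled CPM, than in GMP, at 80.8 and 131.3 (−1.09, adjusted p = 0.00612), whereas B was above Myeloid. All 10 U3 intervals had a positive difference past the threshold (median 1.72), 8 of them under each of the 3 scalings, and they share reads. Gm25117 had 3568 and 3185 in CLP and 8165 and 9884 in GMP (−1.42, adjusted p = 2.55e-05), which gave a difference of 2.05 ± 0.15 (adjusted p = 1.85e-05). Gm25291 followed it at 2.19 ± 0.23 (adjusted p = 0.000216), with 38.2 and 41.0 in CLP and 94.0 and 128.8 in GMP.

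On the negative side, Mir223 had 272.5 and 295.0 scaled CPM in CLP and 267.7 and 423.5 in GMP (−0.28, adjusted p = 0.827), and its difference between contrasts was −2.40 ± 0.48 (adjusted p = 0.00672). Mir451b/Mir451a had 122.2 and 131.4 in CLP and 66.0 and 115.7 in GMP, with a difference of −2.44 ± 0.40 (adjusted p = 0.00253). Mir340, Mir103-1, Mir103-2 and Mir26b had differences from −2.43 to −2.74 with adjusted p from 0.0209 to 0.0465. Those 4 missed the threshold without any 1 of the B, Myeloid or CLP libraries or GMP library 1 (adjusted p 0.0513 to 0.131), and passed among miRNAs alone.

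**Figure D5:**
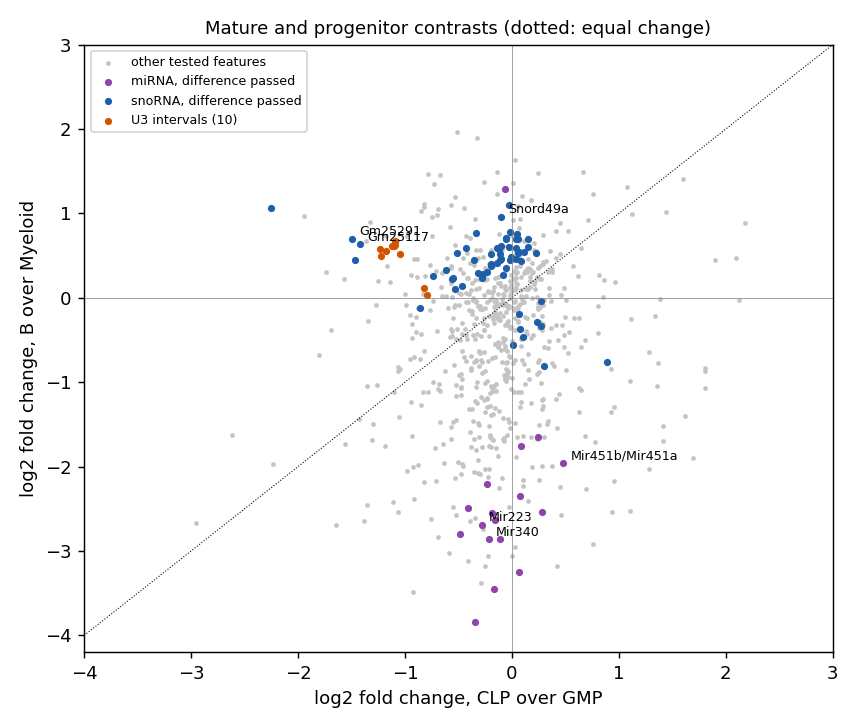
Log2 fold change of CLP over GMP (x axis) against B over Myeloid (y axis), 1 point per tested feature, with the dotted line marking equal change; 21 features lie outside the plotted range. The 10 U3 intervals lie left of and above the origin, and Mir223 lies at −0.28 on the x axis and −2.69 on the y axis.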

How the data were processed

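Small RNA libraries of flow-sorted marrow populations were deposited as raw counts per annotated interval, and only intervals with at least 1 read are listed per library. Per the submitters' processing notes the authors used Trimmomatic 0.38, Bowtie2 2.3.4.1 and GRCm38; the counting program, strand setting and annotation are not given in the sources used here. About 90% of values were even (89.6% to 90.5% in the 4 libraries), so both mates of a pair appear to be counted and counts are not independent molecules. Depth was 15590104 to 35775890 counts in the 4 libraries.

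Intervals were named by exact coordinates in GENCODE M21, hosts were genes on the same strand around an interval, and similar copies were found with blastn 2.17.0. C/D and H/ACA classes came from names or from sequence boxes. edgeR 4.0.16 in R 4.3.3 fitted all 16 libraries as 8 populations (8 residual degrees of freedom), after filterByExpr (minimum count 10) left 749 of 1885 intervals, with TMM scaling and an adjusted p threshold of 0.05. Positive values are higher in B. SE is the log2 fold change divided by the root of the F value. Calls were tested on simulated data. DESeq2 1.42.0, other scalings, filters, samples and feature sets, and leaving out each library were alternatives; fits of the CLP and GMP comparison on snoRNAs or miRNAs alone and without MEP and Erythroid were added after seeing the data. Exact Poisson intervals came from SciPy 1.17.1.

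Named features were the 12 largest calls in each direction with a mean of at least 10 scaled CPM and no overlap between populations, the 8 largest in each direction among snoRNAs, list members, the extreme pair of hosts with calls in both directions, the 6 largest differences in each direction between B against Myeloid and CLP against GMP, and the lowest, highest and called members of miRNA families. Members and lists were chosen with earlier results of these data known. Not every feature that the rule chose is described.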

Additional observations from a re-analysis of the deposited data

Results flagged for a closer look

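The difference between B over Myeloid and CLP over GMP was itself tested, and the largest called differences are given here on the log2 scale. Positive differences were 2.19 for Gm25291, 2.05 for Gm25117, 1.82 and 1.76 for the Rnu3b4 copies ENSMUSG00000098641 and ENSMUSG00000104896, 1.74 for Rnu3b1 (ENSMUSG00000098943) and 1.73 for Rnu3b2 (ENSMUSG00000098925). Negative differences were −2.74 for Mir103-2, −2.64 for Mir340, −2.47 for Mir103-1, −2.44 for Mir451b/Mir451a, −2.43 for Mir26b and −2.40 for Mir223. All 12 were called with TMM, RLE and library totals, while Mir103-1, Mir103-2, Mir26b and Mir340 missed the threshold without any 1 of the B, Myeloid or CLP libraries or GMP library 1 (adjusted p 0.0513 to 0.131).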

How the results depend on the processing

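Of 89 features higher in B and 130 higher in Myeloid, the counts became 17 and 318 with library totals, 117 and 87 with RLE, 133 and 109 with DESeq2, and 67 higher in B with no low-count filter. They were 108 and 75 at a mean of at least 10 CPM, 156 higher in B without GMP, MEP and Erythroid, and 67 and 68 without similar copies or overlaps. With snoRNAs alone they were 67 and 48, and with miRNAs alone 32 and 53. Leaving out 1 library gave 60 to 84 higher in B and 42 to 63 higher in Myeloid (45 without B library 1, 42 without B library 2, 54 without Myeloid library 1 and 63 without Myeloid library 2), and 27 of 80 named calls passed in each of these fits. Library totals reversed Gm23246 (−0.18), Rnu3a (ENSMUSG00000065870; −0.42), Rnu5g (−0.08), Snord118 (−0.16), Snord12 (−0.11), Snord13 (−0.06), Snord14d (−0.35) and Snord69 (−0.15). Fitting miRNAs alone reversed Mir181a-1 (0.79), Mir181a-2 (0.75), Mir19a (0.15), Mir342 (0.81) and Mir92-1 (0.31). The 74 positive and 41 negative differences from CLP against GMP became 64 and 27 with RLE, 19 and 195 with library totals, 34 and 75 with no filter, and 29 and 21 without copies or overlaps. There were 17 positive with miRNAs alone and 81 negative without MEP and Erythroid, both added after seeing the data. Leaving out 1 library gave 24 to 82 positive and 5 to 43 negative. Without the 45S interval, mean shares in B and Myeloid were 97.5% and 94.6% for C/D snoRNAs, 1.21% and 1.14% for H/ACA snoRNAs, 0.750% and 3.39% for miRNAs and 0.289% and 0.527% for snRNAs. The replicate block gave 86 and 116 calls and 73 and 36 differences, and 10 named calls were lost under the block. The deviations (library 1 minus library 2) of B and Myeloid had a correlation of 0.146 over features. Over pairs of populations it ran from −0.64 to 0.489 (median 0.0784). Such a correlation cannot tell whether libraries with the same number share a mouse or batch, which the labels do not say. Beyond what each alternative's own construction shows (fewer features or libraries), the cause of these changes was not tested. In simulated data, the B against Myeloid test on 701 features recovered 48.9% of 2-fold and 78.1% of 4-fold changes, so changes of that size can be missed.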
